A study of Caenorhabditis elegans with 2 samples.

Results

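The histone genes of Caenorhabditis elegans were examined for binding of DPL-1, the worm DP protein, which binds DNA as a heterodimer with E2F transcription factors. The 73 genes are the protein-coding genes of the WBcel235 annotation whose name starts with his- (72 genes) together with htz-1, out of 19973 protein-coding genes on the nuclear chromosomes. Chromatin immunoprecipitation with sequencing had been run on whole L4 larvae, pooled male and female, of strain OP105. This strain carries unc119(ed3) and the integrated transgene wgIs105, in which dpl-1 is fused to TY1, EGFP and FLAG tags next to an unc119 marker, and it is the only genotype and the only group. The group has 2 biological replicates and no second condition, and the labels do not say which promoter or which cells express the fusion protein. Because larvae were taken whole, fewer cells with DPL-1 at a gene and less DPL-1 per cell cannot be told apart.

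Core histones H2A, H2B, H3 and H4 wrap DNA into nucleosomes, and linker histone H1 binds the DNA between them. Most core histone genes are expressed in S phase, when new chromatin needs them, and their mRNAs end in a stem-loop in place of a poly(A) tail. Variant histones such as H3.3 and H2A.Z are made and deposited outside S phase as well. In animals E2F and DP proteins are known for the control of genes needed for S phase, and DPL-1 is a subunit of the DRM complex, the worm relative of the DREAM complex.

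Peak lists on build ce11 were used as the authors deposited them. Each replicate and the pool of both has a relaxed list of 30000 peaks. A stricter list of 3369 peaks was kept after filtering by the irreproducible discovery rate (IDR), which weighs agreement of peaks. At each histone gene with an IDR summit, the strongest one had the same signal and rank in the pooled list. An IDR peak need not be strong in each replicate. Both replicates listed a summit within 100 bp for 3076 of the 3369, and the peak of his-31/his-32 ranked 28294 in replicate 1. A gene counts as bound here if the summit of an IDR peak falls within its promoter window, which reaches 500 bp upstream and 200 bp downstream of each annotated transcript start. Signal is the value the authors gave each peak against a control, in units that no source states. Whether the values of different lists share a scale is not stated either, so ratios between replicates are read against the ratio over all IDR peaks and against ranks. A rank is a peak's place by signal in its own list. Read counts are not part of the lists, and library depth is unknown.

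DPL-1 summits were found at 16 of the 73 histone genes (21.9%), against 13.5% of all protein-coding genes, and the 16 genes share 11 summits. By class, 4 of 17 H2A genes, 3 of 16 H2B genes, 2 of 15 H3 genes and 4 of 16 H4 genes were bound, as were the linker histone gene his-24, the H2A.Z gene htz-1 and 1 of 5 genes for H3.3-type proteins. None of 2 genes whose product is annotated only as a histone domain-containing protein, his-39 and his-73 (classed here as fragment), had a summit in any list. At the other end, 48 of the 73 genes had no summit in their window in the IDR, pooled or replicate lists. Each replicate alone listed a relaxed summit at 21 and 22 histone genes (background 34.5% of all genes in replicate 1 and 36.1% in replicate 2), which is 28.8% and 30.1% of the 73. In both replicates 18 of 73 histone genes had one, against 4793 of all 19973 genes. The IDR share of histone genes lay above the share over all genes and the relaxed shares of the single replicates lay below theirs, and no test of the list was run.

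The strongest peak of the family belonged to htz-1, which encodes the replacement histone H2A.Z. Its signal was 1075 in the IDR list, rank 84 of 3369, with 429 in replicate 1 (rank 133) and 629.7 in replicate 2 (rank 61). The summit at IV:4445909 lies 307 bp upstream of the htz-1 start and 169 bp upstream of the start of wapl-1, the divergent neighbour that encodes a cohesin release factor, so the peak need not belong to htz-1 alone, and counted for the nearest start only it falls to wapl-1. The sequence between both genes around this summit is shown because it holds an E2F word close to the summit. It is the plus strand of chrIV:4445741-4446030 on ce11, read like the other sequences from the RefSeq genome of this build, and the capitals mark that word.
htz-1: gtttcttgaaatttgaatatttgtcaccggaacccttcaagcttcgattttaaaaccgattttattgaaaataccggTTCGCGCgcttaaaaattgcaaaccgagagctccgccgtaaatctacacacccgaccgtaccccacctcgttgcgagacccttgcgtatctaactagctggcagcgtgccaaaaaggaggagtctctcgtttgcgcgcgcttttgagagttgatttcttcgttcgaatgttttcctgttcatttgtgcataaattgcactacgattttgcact

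The second strongest peak stood at his-37, an H4 gene that, unlike most H4 genes, faces no histone partner. It had 732 in the IDR list (rank 172), 287 in replicate 1 and 485 in replicate 2, with its summit at V:9547020, 85 bp upstream of the start. Both replicates ranked this peak high, at 282 in replicate 1 and 109 in replicate 2. The plus strand of chrV:9546842-9547104 is shown, with an E2F word as the first run of capitals and, as the second, a word of 9 bases that recurs in other histone promoters and is described further on.
his-37: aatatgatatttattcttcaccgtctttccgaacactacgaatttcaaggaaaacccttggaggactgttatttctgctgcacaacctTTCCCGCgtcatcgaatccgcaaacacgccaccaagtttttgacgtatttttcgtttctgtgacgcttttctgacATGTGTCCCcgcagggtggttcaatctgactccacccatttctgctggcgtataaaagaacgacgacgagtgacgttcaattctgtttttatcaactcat

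The linker histone gene his-24 had a weaker peak, 88.7 in the IDR list (rank 1878), with 24.5 in replicate 1 and 66.1 in replicate 2, and the summit stood 35 bp upstream of the gene. The 200 bp before the start, chrX:14489894-14490093 on the plus strand, hold the same word of 9 bases, in capitals.
his-24: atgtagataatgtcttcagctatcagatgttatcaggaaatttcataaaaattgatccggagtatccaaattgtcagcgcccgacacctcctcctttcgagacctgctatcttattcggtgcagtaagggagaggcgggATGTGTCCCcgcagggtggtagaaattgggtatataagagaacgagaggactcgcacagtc

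Among the 5 genes for H3.3-type proteins, which replace H3 outside replication, his-72 alone was bound. It had 2 IDR summits, one 133 bp upstream of its first start with a signal of 59.4 and one 351 bp upstream of its second start with 48.4. The replicates ranked these summits in opposite order: the first had 13.2 in replicate 1 and 44.5 in replicate 2, the second 35.8 in replicate 1 and 21.8 in replicate 2. His-69 had a pooled summit of 14.5 that replicate 1 listed with 16.8 and replicate 2 did not list. The X-linked his-71 had relaxed summits in replicate 1 only, the higher of them 7.54, and his-70 and his-74 had none. At least 99.1% of the promoter window of each of these 5 genes was unique in the genome, a measure defined below.

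Most core histone genes stand in head-to-head pairs that share a short promoter. There were 31 such pairs with facing starts at most 1 kb apart, which hold 62 of the 73 genes, and the sequence between the starts (the spacer) was 227 to 368 bp long with a median of 258 bp. Of the 31 pairs 16 join an H2A and an H2B gene, 14 join an H3 and an H4 gene, and his-67/his-68 joins an H4 and an H2A gene. An IDR summit common to both windows was found at 6 of the 31 histone pairs (19.4%), against 584 of all 1745 divergent protein-coding pairs (33.5%). Of the 31 histone spacers, 20 were under 50% unique in the genome, and none of these 20 pairs had a shared summit in any list. With at least 50% of the spacer unique, the shares were 54.5% of histone pairs and 34.6% of all divergent pairs. The 6 pairs were his-67/his-68, his-3/his-4, his-59/his-60, his-61/his-62, his-35/his-41 and his-31/his-32.

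The strongest shared summit, at his-67/his-68, had 167 in the IDR list, 68.3 in replicate 1 and 101 in replicate 2. His-3/his-4, an H2A/H2B pair, followed with 92.6 in the IDR list, 21.3 in replicate 1 and 70.5 in replicate 2. His-59/his-60 (H3 and H4) had 84.7, with 23.5 in replicate 1 and 56.7 in replicate 2. The neighbouring pair his-61/his-62 (H2A and H2B), in the same cluster, was nearly equal with 83.5, 22.3 in replicate 1 and 54.0 in replicate 2. His-35/his-41 had 65.4, with 25.8 in replicate 1 and 31.7 in replicate 2. His-31/his-32 had 46.6, just above the lowest IDR signal of 46.4, with 6.70 in replicate 1, near the lowest listed value of 6.37, and 38.9 in replicate 2.

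Summits at the bound pairs lay inside the spacer and not over the coding sequence. In the IDR list they were 2, 6, 16 and 16 bp left of the middle of the spacer at his-3/his-4, his-61/his-62, his-59/his-60 and his-31/his-32. They were 47 bp right of the middle at his-35/his-41 and 50 bp right of it at his-67/his-68. In replicate 1 the summits of these 6 pairs lay 1 to 41 bp from the IDR summit and in replicate 2 they lay 0 to 27 bp from it.

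**Figure D1:**
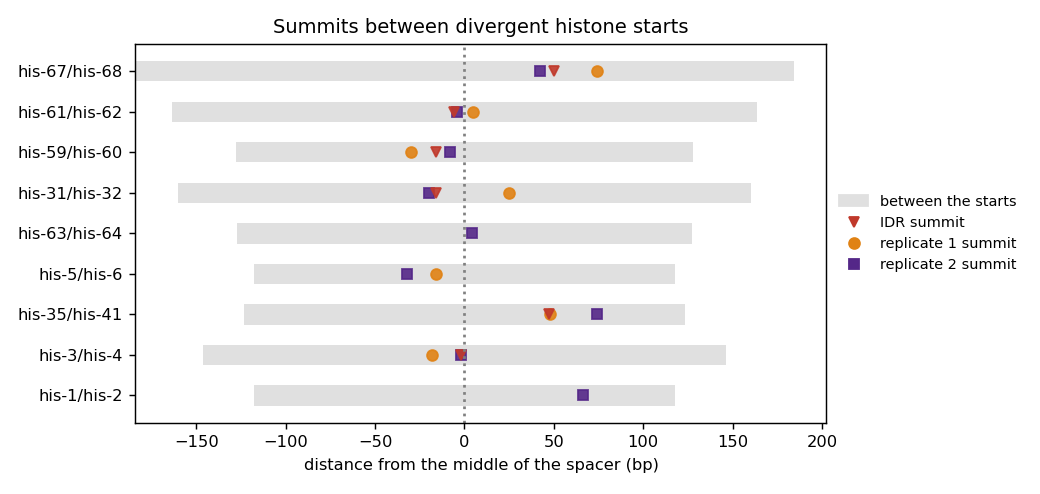
Position of DPL-1 summits, in bp from the middle of the spacer, at the 9 divergent histone pairs with a shared summit in replicate 2. Grey bars run between the facing starts, triangles are IDR summits, circles replicate 1 and squares replicate 2. At 4 of the 6 pairs with an IDR summit it sits within 16 bp of the middle, and his-63/his-64, his-5/his-6 and his-1/his-2 have none.

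Among the bound pairs, 3 spacers are shown to set beside those without one, each as the plus strand between the starts on ce11, with the recurring word of 9 bases in capitals. His-3/his-4 lies at chrV:16040516-16040807, his-59/his-60 at chrIV:7487993-7488248 and his-35/his-41 at chrV:9545289-9545535. The his-35/his-41 spacer does not hold the word.
his-3/his-4: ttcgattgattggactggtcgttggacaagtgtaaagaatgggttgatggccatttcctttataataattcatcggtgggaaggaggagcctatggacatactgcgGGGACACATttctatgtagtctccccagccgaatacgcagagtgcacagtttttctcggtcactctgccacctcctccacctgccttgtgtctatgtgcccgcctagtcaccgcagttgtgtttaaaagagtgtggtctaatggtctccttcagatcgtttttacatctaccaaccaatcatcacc
his-59/his-60: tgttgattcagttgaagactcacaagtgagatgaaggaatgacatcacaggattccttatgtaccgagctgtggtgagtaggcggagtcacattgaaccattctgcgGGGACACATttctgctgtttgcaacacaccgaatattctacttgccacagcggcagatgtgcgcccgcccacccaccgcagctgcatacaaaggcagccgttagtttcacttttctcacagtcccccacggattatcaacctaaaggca
his-35/his-41: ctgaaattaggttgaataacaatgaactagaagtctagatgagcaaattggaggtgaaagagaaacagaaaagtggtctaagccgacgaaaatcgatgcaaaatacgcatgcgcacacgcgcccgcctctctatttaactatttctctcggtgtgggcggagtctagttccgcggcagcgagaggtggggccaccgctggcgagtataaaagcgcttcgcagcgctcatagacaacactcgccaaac

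The next 3 spacers had no IDR summit. His-5/his-6 (chrV:8534978-8535213) had a pooled summit of 31.3, below the IDR minimum, with 10.8 in replicate 1 and 21.1 in replicate 2. His-1/his-2 (chrV:16042284-16042519), in the cluster that holds the bound pair his-3/his-4, had a summit of 7.21 in replicate 2 only. These spacers have equal length and 207 of 236 bases (87.7%) in common, and only the his-5/his-6 spacer holds the exact word. At the matching place the his-1/his-2 spacer reads atgtatccc, where his-5/his-6 has ATGTGTCCC. His-11/his-12 (chrII:13821582-13821808) had no summit in any list, and its spacer occurs in 3 identical copies, the others at his-15/his-16 and his-43/his-44.
his-5/his-6: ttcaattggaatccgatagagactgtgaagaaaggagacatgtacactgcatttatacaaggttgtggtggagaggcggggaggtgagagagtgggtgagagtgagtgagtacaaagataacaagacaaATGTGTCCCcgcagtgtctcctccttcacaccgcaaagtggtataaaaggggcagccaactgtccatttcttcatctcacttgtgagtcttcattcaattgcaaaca
his-1/his-2: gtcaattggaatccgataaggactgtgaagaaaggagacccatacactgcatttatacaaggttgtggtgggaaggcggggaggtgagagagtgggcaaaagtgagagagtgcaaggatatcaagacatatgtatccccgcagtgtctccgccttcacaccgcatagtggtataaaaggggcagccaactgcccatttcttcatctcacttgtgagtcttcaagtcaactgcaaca
his-11/his-12: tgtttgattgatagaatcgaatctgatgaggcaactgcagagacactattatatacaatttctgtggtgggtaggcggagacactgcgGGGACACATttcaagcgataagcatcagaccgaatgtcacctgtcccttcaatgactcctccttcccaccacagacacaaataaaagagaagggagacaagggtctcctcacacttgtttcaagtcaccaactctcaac

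Many histone promoters are exact repeats of each other, so the share of each promoter window that is unique was measured. It is the percentage of positions in the window whose 36-base word occurs once in the genome on either strand. For 32 of the 73 histone genes the share was 0%, and for 44 of the 73 (60.3%) it was under 50%, against 550 of all 19973 genes (2.75%). The median was 5.14% for histone genes and 100% for all genes. The 31 pairs have 21 distinct spacer sequences, and the spacer of his-51/his-52 is found at 4 pairs.

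Of the 44 histone genes with under 50% of the window unique none was bound, against 0.545% of all such genes. With at least 50%, 16 of the 29 histone genes (55.2%) were bound, against 13.9% of all such genes. By core class, the bound genes with at least 50% were 4 of 4 H2A, 3 of 3 H2B, 2 of 6 H3 and 4 of 7 H4 genes. Among all 275 genes with under 10% of the window unique none had an IDR summit (0%) and 1 had a relaxed summit in either replicate (0.364%). Of the 40 histone genes among them none had a relaxed summit in either replicate. The lowest share at a bound histone gene was 58.2%, at his-3 and his-4. The sources used here do not state how reads that match several places were treated, and the part of sequence repeats in the missing summits was not tested. For the 40 histone genes with under 10%, a missing summit cannot be told apart from missing unique reads. Of the 4 histone genes with 10% to 50%, his-6 (49.2% unique) had relaxed summits in both replicates, his-64 (48.2%) had one in replicate 2, and his-7 and his-8 had none.

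**Figure D2:**
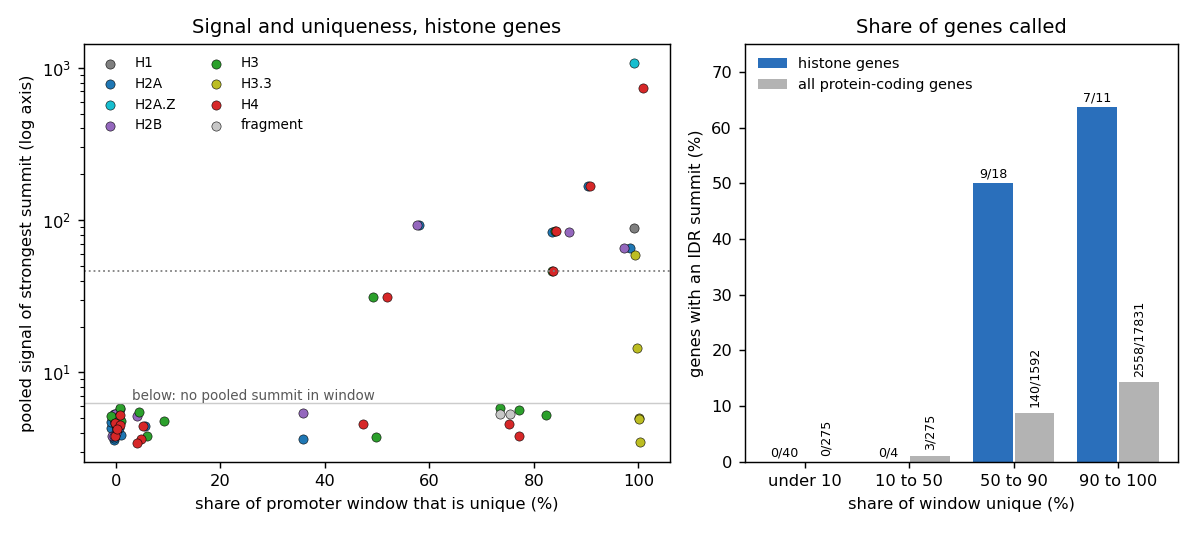
Left, signal of the strongest pooled summit in the promoter window (log axis) against the share of the window that is unique, 1 point per histone gene coloured by class. Genes with no pooled summit are placed below the grey line with small random offsets, and the dotted line is the lowest IDR signal at a histone gene, 46.6. Right, percentage of histone genes and of all protein-coding genes with an IDR summit by uniqueness, with counts above the bars. No histone gene under 50% is bound, and 9 of 18 and 7 of 11 are bound in the upper bins.

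Among the 11 histone pairs with at least 50% of the spacer unique, 6 had a shared IDR summit (54.5%), against 34.6% of all divergent pairs with such a spacer. Of these, 3 of 4 H2A/H2B pairs and 2 of 6 H3/H4 pairs were bound, and the difference between classes was not tested. The 5 pairs without an IDR summit were his-1/his-2, his-5/his-6, his-7/his-8, his-38/his-40 and his-63/his-64. The spacer of his-38/his-40, an H3/H4 pair on the X chromosome, was 100% unique, and the pair had no summit in any list, as had his-7/his-8. His-63/his-64 had a summit of 6.11 in replicate 2 only.

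The histone genes fall into 14 clusters, runs of genes with starts at most 10 kb apart, which hold 67 of the 73 genes. IDR summits were found in 5 of them. All genes were bound in the cluster of 4 on chromosome IV from his-61 to his-59, in the pair his-67/his-68 on chromosome I and in the group of his-35, his-41 and his-37 on chromosome V. In the cluster from his-29 to his-34 only the middle pair his-31/his-32 was bound, and its windows are 83.9% and 84.0% unique while those of the other 4 genes are 0% unique. In the cluster from his-4 to his-1 the pair his-3/his-4 was bound. The largest cluster, 13 genes over 10.9 kb on chromosome II, had no IDR or pooled summit in its windows, and 12 of its 13 windows are under 50% unique. Its remaining gene, the H3 gene his-42 with 78.0% unique, had a relaxed summit of 9.0 in replicate 1 only. Another 4 clusters, with 22 genes, have every window under 50% unique and no summit in any list.

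**Figure D3:**
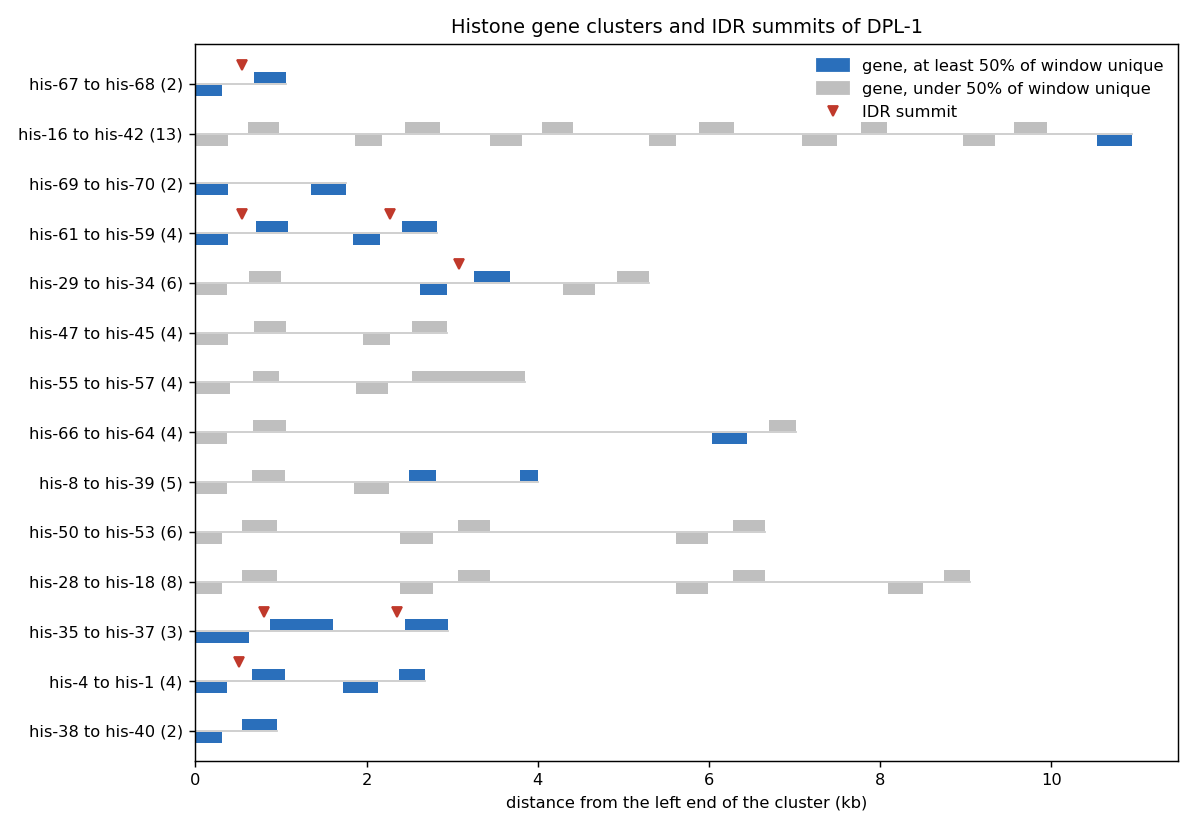
Map of the 14 histone gene clusters, in kb from the left end of each, named by their first and last gene with the number of genes in brackets. Boxes above the line are genes on the plus strand and boxes below it genes on the minus strand, blue with at least 50% of the promoter window unique and grey with under 50%, and triangles are IDR summits. All 7 triangles stand beside blue genes, and 9 clusters have none.

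Replicate 2 carried the higher signal at most histone summits. For all 11 IDR summits, each replicate listed its own summit at most 100 bp away, and at 10 of the 11 the value was higher in replicate 2, against 1874 of the 3076 IDR peaks found in both replicates. The median log2 ratio of replicate 2 over replicate 1 was 1.27 at the histone summits and 0.19 at those 3076 peaks. The highest ratio, 2.54 at his-31/his-32, was above that of 99.7% of those peaks, and his-3/his-4 (1.73) and his-24 (1.43) were above 97.9% and 95.5%. At htz-1 and his-37 the log2 ratios were lower, 0.55 and 0.76. By rank, the median histone summit stood at 3455 in replicate 1 and at 1630 in replicate 2, while the median over all IDR peaks was 1592 and 1582. Counting the 3369 strongest peaks of a single replicate, 7 histone genes were bound in replicate 1 (9.59%, against 13.1% of all genes) and 16 in replicate 2 (21.9%, against 13.3% of all genes). Without replicate 2 the count of bound histone genes is thus 7 in place of 16. The libraries are 2 samples of 1 group, and the cause of their difference was not tested.

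**Figure D4:**
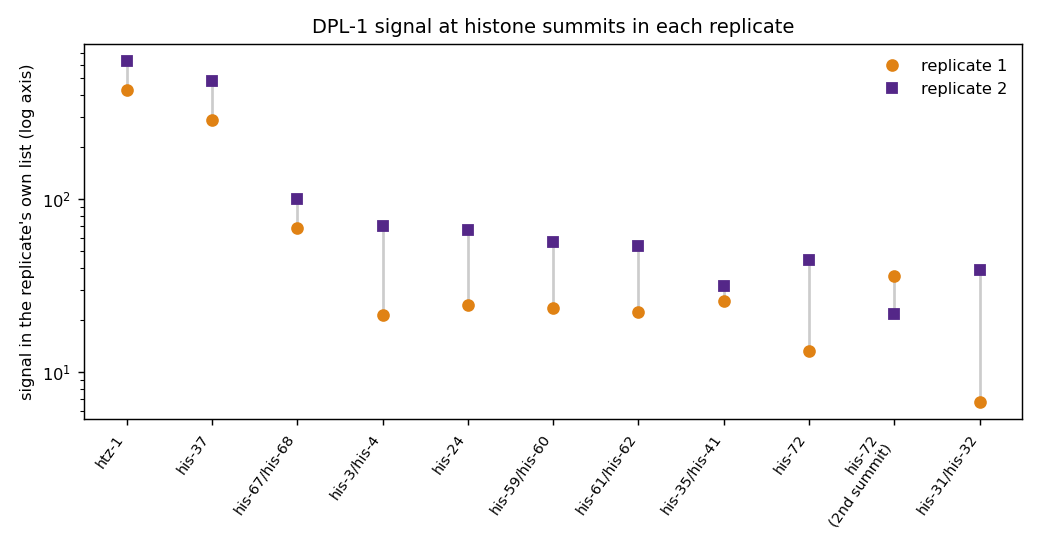
Signal at the 11 histone summits in the relaxed list of each replicate (log axis), ordered by IDR signal; circles are replicate 1, squares replicate 2, and a line joins the values of a summit. Squares lie above circles at 10 of the 11 summits, and the exception is the second his-72 summit with 35.8 in replicate 1 and 21.8 in replicate 2.

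Apart from htz-1, his-37 and his-67/his-68, the histone summits were below the median of all IDR peaks. The median signal of the 11 was 84.7, against 132 for the 2124 IDR summits in any promoter window and 99.3 for all IDR peaks, and 8 of the 11 were below 99.3.

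Words known as E2F and DRM sites were in a smaller share of histone windows than of all windows, except among histone genes outside pairs. The window of a paired gene reaches past the spacer into both genes. Many histone windows repeat each other, so counts of windows with a word are not counts of separate sequences. An E2F word (on either strand TTCCCGC, or the word TTCGCGC, or the word TTGCCGC, or the word TTGGCGC) was in the window of 10 of 73 histone genes (13.7%), against 22.8% of all protein-coding windows and 35.4% of those with an IDR summit. It was in 4 of the 16 bound genes: htz-1, his-37, his-24 and his-72. Of the 11 histone genes outside pairs, only these had it. It was also in the windows of his-47, his-48, his-57, his-58, his-65 and his-66, which are under 10% unique. At the summits themselves it was within 100 bp at 3 of 11 histone summits, at 88 bp for htz-1, 87 bp for his-37 and 75 bp for 1 of the his-72 summits, against 675 of all 3369 IDR summits. None of the 6 bound divergent pairs had one within 250 bp of its summit. The CHR word bound by the DRM subunit LIN-54 (TTTGAA or TTCGAA, on either strand) was in 28.8% of histone windows, against 93.6% of all windows. It was in 11 of the 11 histone windows outside pairs. Within 100 bp it lay at 3 of 11 histone summits, against 49.8% of all IDR summits. The TATA word TATAAA, on either strand, was in 75.3% of histone windows, against 67.0% of all windows. It lay within 100 bp of 6 of 11 histone summits, against 14.8% of all IDR summits.

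A longer word recurs in the histone spacers. Of all words of 9 bases, ATGTGTCCC (GGGACACAT on the other strand) was in the most distinct spacers, 13 of 21, and the next, AAGACTCAC, was in 12. It was in the windows of 43 of 73 histone genes (58.9%), against 107 of all 19973 genes (0.536%). Many of the histone windows repeat each other, and distinct spacers can be alike. Those of his-3/his-4 and his-51/his-52 have 259 of 292 bases (88.7%) in common. The windows and spacers with the word are thus not separate occurrences. Because the word was chosen from these spacers, its frequency there is a description. His-24, his-37 and the H3.3 gene his-69, which stand in no pair and did not enter the choice, hold it too. It lay within 100 bp of 7 of the 11 histone summits, at 1 bp from the summit of his-59/his-60, 3 bp at his-67/his-68, 11 bp at his-37, 22 bp at his-24, 33 bp at his-3/his-4, 57 bp at his-31/his-32 and 74 bp at his-61/his-62. Among all IDR summits 13 had it within 100 bp (0.386%).

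Among the histone genes with at least 50% of the window unique, 12 of 14 with this word were bound, and 4 of 15 without it were bound. Those 4 are htz-1, his-72, his-35 and his-41, and the 2 unbound genes with the word are his-5 and his-69. Of the 64 other genes with the word, 10 were bound (15.6%), near the 13.5% of all genes. These counts include both genes of a pair if both windows reach the 50% cut, and were not tested. The word was chosen from the spacers of these same genes, so the split by it is a description. The unbound genes without the word also differ in kind. His-39, his-42, his-70, his-71, his-73 and his-74 stand in no pair, and the others, his-1, his-2, his-38, his-40 and his-63, are paired H3 or H4 genes. The cut leaves out his-6 (49.2% unique), which holds the word and is unbound, while its partner his-5 counts. It also leaves out his-64 (48.2%), unbound and without the word, while its partner his-63 counts.

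Genes whose products process, carry and place histones were looked at beside the histone genes. Of 19 such genes outside the linker histones 13 had an IDR summit (68.4%), against 13.5% of all genes, and their median signal was 177, against 148 for all genes with an IDR summit and 84.7 for the 16 bound histone genes. The strongest was cdl-1, which encodes the stem-loop binding protein that processes histone mRNA. Cdl-1 had 999.7 in the IDR list (rank 99), 462 in replicate 1 and 566 in replicate 2, with its summit 164 bp upstream of the start.

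Of 13 chaperone genes 10 were bound (76.9%). Lin-53, a histone-binding subunit of several chromatin complexes, had 969.9 (447 in replicate 1 and 515 in replicate 2), a summit shared with nra-2. Of the CAF-1 complex, which deposits H3 and H4 behind replication forks, the subunit genes chaf-2 and chaf-1 were bound, chaf-2 with 249 (summit shared with Y71G12B.30) and chaf-1 with 136. The gene of HIRA, which deposits H3.3, had 227. Nasp-1 had 183 and nasp-2 had 133, nap-1 had 149.5 with a summit shared with praf-3, and the ASF1 gene unc-85 had 121. Of the FACT genes hmg-4 had 125 (shared with T20B12.3) and spt-16 had 123. Asfl-1, hmg-3 and rba-1 had no IDR summit. Each of these 3 has a bound paralog, unc-85, hmg-4 and lin-53, and the difference within the paralogs was not tested.

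Centromeric H3 replaces H3 where chromosomes attach to the spindle. Hcp-3, which encodes the main CENP-A of the worm, had 233 in the IDR list, 104 in replicate 1 and 133 in replicate 2, and its paralog cpar-1 had only a relaxed summit of 8.05 in replicate 1. Knl-2, needed to load CENP-A, had 177. The remodeller genes xnp-1 and ssl-1 had no IDR summit, but both had relaxed summits in both replicates. Xnp-1 had 7.36 in replicate 1 and 24.9 in replicate 2, with a pooled summit of 25.9. Ssl-1 had 9.78 in replicate 1 and 5.50 in replicate 2, and no pooled summit. None of the 8 linker histone genes named hil- was bound, against 13.5% of all genes, and the strongest of their pooled summits were 32.4 at hil-7 and 25.6 at hil-3. At least 77.2% of each of these 27 windows was unique.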

How the data were processed

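The peak lists on build ce11 are narrowPeak files deposited by the authors, called on each replicate and on the pooled replicates against a control alignment, per the deposited file listings. No source used here names the aligner or the peak caller. The signal of each peak, its summit offset in bp and its −log10 q-value were deposited by the authors, and the q-value was not used. The ce10 lists were not used.

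Summits were assigned to windows in Python 3.11.15 (numpy 2.4.6, pandas 2.3.3), with the Ensembl release 115 annotation and the RefSeq genome of WBcel235, the same assembly as ce11. The Ensembl names repeat (51 names for 73 genes), so RefSeq symbols, matched by WormBase ID for all 73, are used. Classes come from RefSeq product names and not from protein sequences as first planned, and his-24 was set to H1 by hand.

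Uniqueness used exact 36-base words. Named are all bound histone genes, htz-1, his-24, the H3.3 genes, genes that share a summit and bound supply genes. Unbound genes outside this rule, and the word of 9 bases, were picked with their values in view. The members and lists were chosen with earlier results of these data known. With 1 group there was no comparison between conditions, and no test was run. The window assignment and the uniqueness count were tested on simulated data.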

Additional observations from a re-analysis of the deposited data

How the results depend on the processing

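Of 40 alternative values, 29 stayed within 1.5 times the reported one. The 29 include the median signals from single replicates, whose scale may differ from that of the IDR list. With the stronger 50% of the IDR peaks, bound histone genes numbered 4, bound pairs 1 and clusters with a summit 2, with a median signal of 732. With 1 replicate's strongest peaks in place of the IDR list, bound histone genes ranged from 7 (without replicate 2) to 16 (without replicate 1), pairs from 2 to 6 and clusters from 2 to 5. The median signal ranged from 61.4 to 68.3, each on the scale of its own list. Counting a summit for the nearest start only, 9 histone genes were bound and 8 had a relaxed summit in both replicates, since a pair then counts once, htz-1 goes to wapl-1, and at his-31/his-32 and his-61/his-62 the replicates' summits are nearest to different partners. From 200 bp upstream to 100 bp downstream, 7 supply genes were bound. Apart from the gene counts of single replicates, the shares over all genes or pairs at these settings are not given. These counts therefore do not show whether the histone or supply genes stay above all genes. An E2F word lay within 100 bp of the strongest pooled summit at 3 histone genes. With words of 50 or 100 bases, 42 or 40 histone genes had under 50% of the window unique. No paired analysis was possible because there is 1 group.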

Other observations

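Inside the 14 histone clusters, none of the 7 IDR summits lay outside the promoter windows of the histone genes. In the pooled list 6 of 15 summits lay outside them, in replicate 1 it was 6 of 15 and in replicate 2 it was 6 of 17. In the pooled list 3 of the 6 were in the cluster from his-66 to his-64, whose 4 genes have no pooled summit in their windows and which spans 2 other protein-coding genes.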
